A study of Mus musculus with 12 samples.

Results

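The expression of 8 genes of retinoid handling, out of 46078 genes in a liver RNA-seq table, was followed across 12 mice: Cyp26a1, Cyp26b1, Rarb, Rbp4, Lrat, Aldh1a1, Dhrs3 and Rdh16. They were chosen by name, and Cyp26a1 and Cyp26b1 were put on the list because they were among the most changed genes of these same libraries. The levels of those 2 genes are therefore described without a test, while the other 6 were tested. All 8 members passed the filter on low counts, which kept 13054 genes.

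The animals were C57BL/6 mice aged 21 weeks with diet-induced obesity (DIO), given as male C57BL/6J in the methods of the study, and all of them had surgery. VSG mice had a vertical sleeve gastrectomy, which removes most of the stomach. Sham-WM mice had a sham operation and were then fed a restricted amount to match the weight of the VSG group, and Sham-Ad lib mice had a sham operation and ate freely. Each group gave 4 livers, selected from a larger surgical cohort and taken after a short period without food once weight had stabilised.

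Between 15122520 and 19384076 reads were counted per library. Libraries are named here by animal: 3F, 4F, 6F and 10F were Sham-Ad lib, 2F, 9F, 15F and 16F were Sham-WM, and 1F, 8F, 11F and 18F were VSG. A second field of the sample labels joins titles to libraries in another order, and with that grouping edgeR called 0 of 13054 genes in any comparison (158 to 715 at an unadjusted p under 0.05). The numbers that end the library names ran in 1 block per group. No source used here says what they stand for, and anything tied to them cannot be told apart from treatment. The livers expressed the hepatocyte marker Alb and the stellate cell markers Des and Reln in all 12 libraries. Of the adipocyte markers, Adipoq, Lep and Plin1 had 0 or 1 counts in every library, while Cfd had 2 to 183, with means of 7.78 CPM in Sham-Ad lib, 0.347 CPM in Sham-WM and 1.08 CPM in VSG, lower in both weight-reduced groups. Its part in the differences below was not tested. Of the pancreatic markers, Cpa1 and Pnlip had 0 counts in every library and Ctrb1 and Prss2 at most 3, while Cela1 had 195 to 493 and was called in no comparison.

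The liver is the main store of vitamin A. Hepatocytes take up dietary retinoids and secrete retinol bound to the carrier RBP4, and stellate cells hold retinyl esters made by LRAT in lipid droplets. Retinol is oxidised to retinal and then to retinoic acid, a ligand of the nuclear receptors of the RAR family, and CYP26 enzymes hydroxylate retinoic acid and so clear it. Cyp26a1 and Rarb are textbook targets of the receptor, which binds as a heterodimer with RXR to paired half-sites with a spacer of fixed length.

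Cyp26a1, Cyp26b1, Rarb and Lrat were highest in the same libraries. For that reason the sequence just before each member's start site was searched for a pair of half-sites 5 bases apart (DR5), on both strands. The half-site searched was AGGTCA, or one of the variants AGTTCA or else GGGTCA or again GGTTCA. All 8 members had RefSeq start windows (GRCm38.p6, 12 windows of 300 bases, from 250 before to 50 after the start). A DR5 pair was found in the windows of Cyp26a1 and Rarb and in no window of the other 6 genes, including Cyp26b1 and Lrat. Over all RefSeq windows of this length 0.0974% held such a pair, 32 of 32851. Each pair is shown with 6 flanking bases, half-sites in capitals, on the strand that carries it:
Cyp26a1: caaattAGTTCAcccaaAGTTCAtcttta
Rarb: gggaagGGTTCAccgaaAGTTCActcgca

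The Cyp26a1 pair lies at chr19:37697776-37697792, from base -32 to base -16 relative to the RefSeq start and on the strand opposite to the gene, outside any gene of GENCODE M21. The Rarb pair lies at chr14:16575513-16575529, from base -53 to base -37, on the strand of the gene and within an annotated exon of Rarb. Both pairs share the second half-site. Pairs with spacers of 2 bases (DR2) or 1 base (DR1), built from the same half-sites, were in no member window and in 0.268% and 0.222% of all windows. The Cyp26a1 promoter is given up to the base before the annotated gene, chr19:37697558-37697797, plus strand, with the same half-sites in capitals as they read on this strand:
Cyp26a1 promoter: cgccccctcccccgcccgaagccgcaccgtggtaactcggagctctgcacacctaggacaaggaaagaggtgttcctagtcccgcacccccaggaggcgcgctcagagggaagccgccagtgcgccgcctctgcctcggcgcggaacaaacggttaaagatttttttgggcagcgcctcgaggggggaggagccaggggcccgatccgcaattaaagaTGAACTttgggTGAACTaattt

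A match of letters is a description and not a measured binding site. Since Cyp26a1 and Rarb are textbook targets of the receptor, a pair in their windows could be foreseen. The part of these pairs in the differences of level was not tested. Of the 29 other genes with a DR5 pair, 13 were in the count table and 3 had enough reads to be tested, Blvrb, Gm4631 and Ppbp. Of these 3, Ppbp, a platelet chemokine, had fitted log2 differences of 3.40 for VSG against Sham-Ad lib and 4.05 for VSG against Sham-WM, given as a description since it had enough reads to be tested only through VSG, and Blvrb and Gm4631 were not called.

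The 8 members differed widely in level. Per length, as counts scaled for exon length and library size (RPKM), Sham-Ad lib means were 2318 for Rbp4, 304.1 for Aldh1a1, 41.7 for Dhrs3, 20.8 for Rdh16 and 3.04 for Lrat. Rarb, Cyp26a1 and Cyp26b1 were the lowest, with mean RPKM of 0.711, 0.617 and 0.285. In Sham-WM livers Cyp26a1 reached a mean RPKM of 16.6, between Rdh16 at 21.3 and Lrat at 5.35. Its SD of 17.5 RPKM there was as large as the mean, so its place beside Rdh16 and Lrat was within the spread. In VSG livers Cyp26a1 had 3.37 RPKM and Lrat 2.13, and the SD of Cyp26a1, 2.28, exceeded their difference. All further levels are CPM, counts scaled for library size alone, which compare libraries and not genes.

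**Figure D1:**
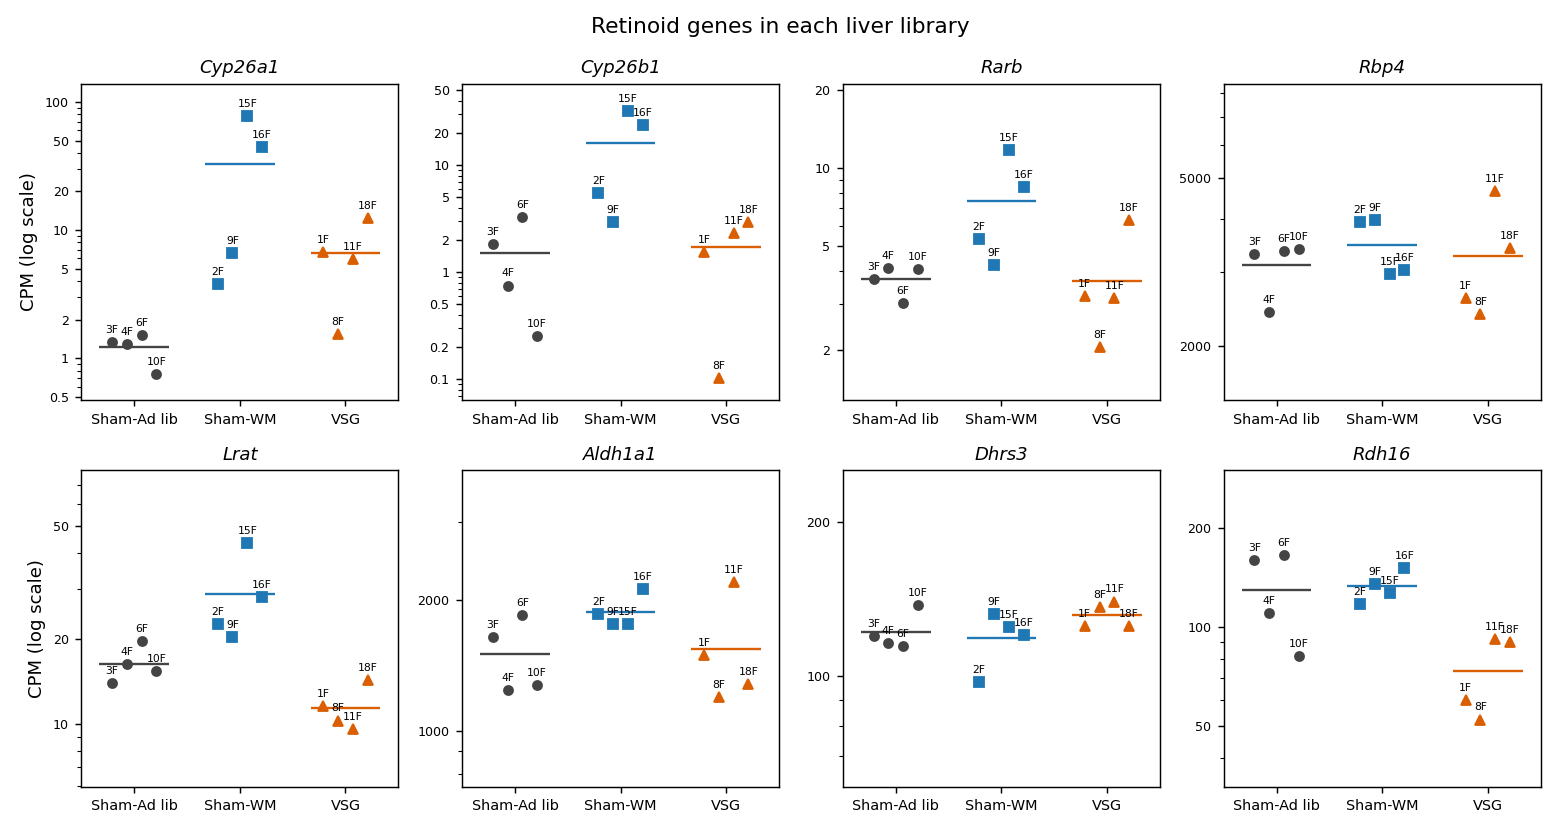
CPM (log scale) of the 8 retinoid genes in each of the 12 liver libraries, by group, with each point labelled by animal and bars at group means of 4 libraries. For Cyp26a1, Cyp26b1, Rarb and Lrat, libraries 15F and 16F were the highest of the 12, while Rbp4, Aldh1a1 and Dhrs3 had overlapping groups throughout.

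Cyp26a1, the main retinoic acid hydroxylase of the liver (chr19:37697798-37701536, plus strand), was low in freely fed sham mice and higher in both groups that lost weight. Sham-Ad lib libraries held 1.34, 1.29, 1.51 and 0.753 CPM in animals 3F, 4F, 6F and 10F. Sham-WM libraries held 3.77, 6.66, 77.2 and 44.1 CPM in 2F, 9F, 15F and 16F. VSG libraries held 6.69, 1.53, 5.95 and 12.5 CPM in 1F, 8F, 11F and 18F. Every Sham-WM and every VSG value lay above every Sham-Ad lib value, though VSG animal 8F did so by a narrow margin, 1.53 against 1.51 CPM. The Sham-WM and VSG ranges overlapped.

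Freely fed mice averaged 1.22 ± 0.329 CPM of Cyp26a1, weight-matched mice 32.9 ± 34.8 and VSG mice 6.67 ± 4.51 (SD, n = 4). The fitted log2 difference was 4.73 (SE 0.93) for Sham-WM against Sham-Ad lib, 2.43 (SE 0.92) for VSG against Sham-Ad lib, and -2.31 (SE 0.78) for VSG against Sham-WM. The first 2 of these share the Sham-Ad lib libraries. The level in Sham-WM rested on 15F and 16F. Without 15F alone the last difference was -1.45. Without both, in an alternative chosen after their values were seen, the Sham-WM difference from Sham-Ad lib was 2.08 on the log2 scale and that between VSG and Sham-WM changed direction, to 0.35. With 2 RUVs factors of unwanted variation, estimated from differences between replicates, VSG differed from Sham-Ad lib by 3.59 and from Sham-WM by -0.65. Within Sham-WM the highest library exceeded the lowest 20.5-fold. Among the 10824 genes averaging log2 CPM of 1 or more, only 2 had a larger SD of log2 CPM in that group.

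Cyp26b1, the related hydroxylase (chr6:84571414-84593908, minus strand), was higher in Sham-WM, and no VSG value exceeded the range of freely fed mice. Its Sham-Ad lib values were 1.84, 0.751, 3.25 and 0.251 CPM. In Sham-WM it stood at 5.55, 2.97, 32.1 and 23.9 CPM, again with 15F and 16F highest. VSG values were 1.55, 0.102, 2.34 and 2.96 CPM, the second of these (8F) being 2 counts, under the floor of 3 counts. All 4 VSG values lay below all 4 Sham-WM values, but 2.96 CPM in 18F and 2.97 in 9F were nearly the same. Sham-WM overlapped Sham-Ad lib only through 9F, which was below 6F.

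The mean of Cyp26b1 was 1.52 ± 1.33 CPM for freely fed mice, 16.1 ± 14.2 for weight-matched mice and 1.74 ± 1.23 for VSG mice (SD, n = 4). On the log2 scale the difference was 3.38 (SE 0.86) for Sham-WM against Sham-Ad lib, 0.15 (SE 0.91) for VSG against Sham-Ad lib and -3.24 (SE 0.86) for VSG against Sham-WM. Leaving out 15F and 16F brought the first to 1.47 and the last to -1.32. With 2 RUVs factors VSG differed from Sham-Ad lib by 1.92 and from Sham-WM by -1.10. With 1 library left out, the small difference between VSG and Sham-Ad lib ran from -0.29 (without 18F) to 0.82 (without 6F). Whether the response to VSG differed between Cyp26a1 and Cyp26b1 was not tested.

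Cyp26c1, the third enzyme of the family, lies next to Cyp26a1 on the same strand (chr19:37685581-37693398) and did not pass the filter. Sham-Ad lib libraries had 1, 1, 0 and 1 counts of it, Sham-WM libraries 3, 7, 36 and 22, and VSG libraries 1, 0, 3 and 4. Its 2 highest libraries were 15F and 16F, and 8 of the other 10 held 3 counts or fewer.

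**Figure D2:**
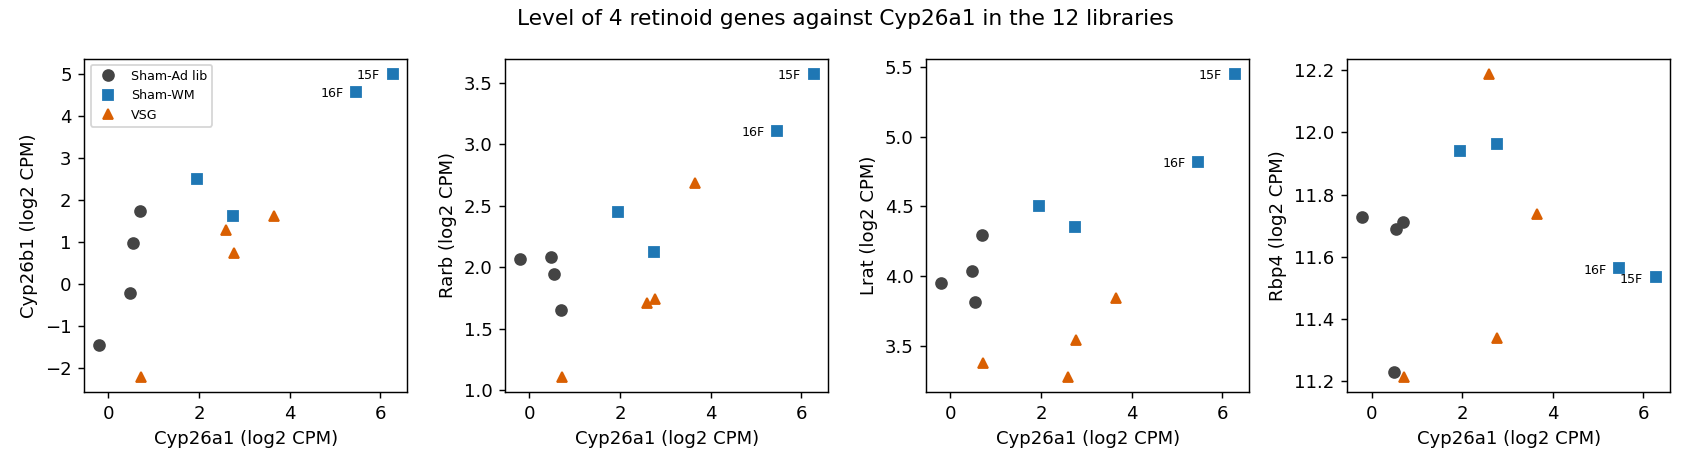
Log2 CPM of Cyp26b1, Rarb, Lrat and Rbp4 (vertical axes, 1 panel each) against log2 CPM of Cyp26a1 (horizontal axis) in the 12 libraries, with a colour and shape for each group. Animals 15F and 16F lie at the upper right for Cyp26b1, Rarb and Lrat, apart from the other 10 libraries, but in the lower part of the Rbp4 range.

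Rarb encodes a retinoic acid receptor (chr14:16430839-16819156, minus strand) and was, by Pearson r over the 12 libraries, the member most like both Cyp26 genes after they themselves. Sham-Ad lib libraries held 3.74, 4.13, 3.03 and 4.08 CPM of Rarb, Sham-WM 5.35, 4.25, 11.8 and 8.498 CPM, and VSG 3.23, 2.04, 3.16 and 6.31 CPM. All Sham-WM values were above all Sham-Ad lib values, and VSG animal 18F overlapped Sham-WM. The log2 difference between Sham-WM and Sham-Ad lib was 1.00 (SE 0.35) and missed the threshold (adjusted p = 0.108, edgeR's quasi-likelihood test with Benjamini-Hochberg adjustment over all genes), while DESeq2 called it (adjusted p = 0.0493).

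Against Sham-WM, Rarb fell in VSG by 1.02 on the log2 scale (SE 0.35, adjusted p = 0.0467 by edgeR). Its means were 3.69 ± 1.83 CPM in VSG and 7.47 ± 3.39 CPM in Sham-WM (SD, n = 4). That call was close to the threshold: it was made in 3 of the 12 fits that left out 1 library. It was lost without any 1 of the Sham-Ad lib libraries 3F, 4F, 6F or 10F (adjusted p between 0.0532 and 0.0587), without 15F (0.165), 16F (0.105), 1F (0.105), 8F (0.0988) or 11F (0.0941). Without 15F and 16F together the difference was -0.39 (adjusted p = 0.538), with 2 RUVs factors -0.43 (adjusted p = 0.705), and with only the 2 groups in the fit -1.02 (adjusted p = 0.0854). VSG and Sham-Ad lib differed by -0.02 on the log2 scale (95% interval -0.79 to 0.75, adjusted p = 0.976). Rarb overlaps Top2b on the opposite strand, which had 1020 counts per library on average, and the sources used here do not state whether counting used the strand.

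Lrat, which esterifies retinol for storage (chr3:82892579-82903973, minus strand), was higher in Sham-WM than in either other group. Sham-WM libraries held 22.5, 20.3, 43.7 and 28.1 CPM, compared with 13.95, 16.3, 19.5 and 15.3 CPM in Sham-Ad lib and 11.5, 10.3, 9.57 and 14.2 CPM in VSG. The 4 Sham-WM values lay above the 8 values of the other groups. VSG and Sham-Ad lib overlapped only through 18F, at 14.2 CPM, and 3F, at 13.95 CPM.

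Against Sham-WM, Lrat fell in VSG by 1.33 on the log2 scale (SE 0.22, adjusted p = 0.00174 by edgeR), from 28.6 ± 10.5 to 11.4 ± 2.05 CPM (SD, n = 4). It was called in all 12 fits that left out 1 library (adjusted p between 0.00167 and 0.00603) and without 15F and 16F together (-0.91, adjusted p = 0.0193). With 2 RUVs factors the call was lost (-0.96, adjusted p = 0.115). Compared with Sham-Ad lib, Lrat rose in Sham-WM by 0.82 on the log2 scale (SE 0.22, adjusted p = 0.0384 by edgeR). This smaller rise was called in 5 of the 12 fits. It was lost without 3F (adjusted p = 0.104), 4F (0.0783), 6F (0.0506), 10F (0.106), 15F (0.106, with the rise at 0.54), 16F (0.0875) or 8F (0.0516), and without 15F and 16F together (0.40, adjusted p = 0.404). Between VSG and Sham-Ad lib the difference of -0.51 (SE 0.22) was not called (adjusted p = 0.182).

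Since Lrat marks retinoid-storing stellate cells, a list of 18 stellate cell genes without Lrat was set beside it. In whole liver, fewer stellate cells and less RNA per cell cannot be told apart. The summed level of the list ran from 494.8 to 702.7 CPM for Sham-Ad lib, 497.8 to 607 CPM for Sham-WM and 338.1 to 564.6 CPM for VSG. For VSG against Sham-WM, 6 of the 18 were lower and 0 higher, where 11.9% of all genes were lower and 15% higher. For VSG against Sham-Ad lib edgeR called 0 of 18, with 6 at an unadjusted p under 0.05 and 4 by DESeq2. Shares of all genes there were 0.751% by edgeR, 24.1% at an unadjusted p under 0.05 and 9.01% by DESeq2. For Sham-WM against Sham-Ad lib it was 0 of 18 by any of these, beside 6.99%, 21.6% and 10.8% of all genes. Animals 15F and 16F, highest for Lrat and the Cyp26 genes, had stellate sums of 587.7 and 497.8 CPM, below 607 CPM in 2F. The part of stellate cell content in the Lrat difference was not tested.

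Rdh16, a retinol dehydrogenase of hepatocytes (chr10:127801152-127846565, plus strand), was lower in VSG than in Sham-WM, and the sham groups did not differ beyond their spread. Sham-Ad lib libraries held 159.1, 110.5, 165.6 and 81.4 CPM, Sham-WM 117.5, 135.3, 126.7 and 150.7 CPM, and VSG 60.1, 52.4, 91.6 and 89.9 CPM. VSG lay below Sham-WM in every library, and only 10F of Sham-Ad lib reached into the VSG range. Against Sham-WM it fell by 0.85 on the log2 scale (SE 0.23, adjusted p = 0.017 by edgeR), from 132.6 ± 14.1 to 73.5 ± 20.2 CPM (SD, n = 4).

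The Rdh16 call was lost without 1F (-0.77, adjusted p = 0.0513), without 15F and 16F together (-0.79, adjusted p = 0.123) and with 2 RUVs factors (-0.29, adjusted p = 0.609). Against Sham-Ad lib the VSG difference of -0.81 (SE 0.23) missed the threshold (adjusted p = 0.0729). It passed with DESeq2 (-0.85, adjusted p = 0.00975), with no filter on low counts (-0.86, adjusted p = 0.0262), with 2 RUVr factors (-0.82, adjusted p = 0.00787) and without 18F (-0.93, adjusted p = 0.0419 by edgeR). Sham-WM and Sham-Ad lib differed by 0.04 (95% interval -0.45 to 0.53). Rdh16 has close paralogs and overlaps the pseudogene Rdh18-ps, so some of its reads may be shared with near-identical copies.

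Rbp4, Aldh1a1 and Dhrs3 were called in no comparison by edgeR or DESeq2, and none had an unadjusted p under 0.05. Rbp4, the plasma retinol carrier (chr19:38116629-38125281, minus strand), had 3305, 2404, 3354 and 3391 CPM in freely fed mice. Weight-matched mice had 3929, 3991, 2965 and 3026 CPM and VSG mice 2591, 2374, 4670 and 3416 CPM. Its groups overlapped in every pair, and 15F and 16F were the 2 lowest of Sham-WM. The widest of its 3 log2 differences was 0.16 (SE 0.22, 95% interval -0.31 to 0.63, adjusted p = 0.736 by edgeR) for Sham-WM against Sham-Ad lib.

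Aldh1a1, which oxidises retinal to retinoic acid (chr19:20492715-20643465, plus strand), stood at 1639, 1244, 1846 and 1277 CPM in freely fed mice, at 1851, 1755, 1762 and 2115 CPM in weight-matched mice and at 1496, 1195, 2191 and 1283 CPM after VSG. Sham-WM values were the most even, and VSG animal 11F held the highest value of the 12. The difference between Sham-WM and Sham-Ad lib was 0.32 (SE 0.20, adjusted p = 0.393 by edgeR) and that between VSG and Sham-WM -0.28 (SE 0.20, adjusted p = 0.311). Without 11F the latter was -0.50 and was called (adjusted p = 0.0481). Reads of Aldh1a1 and its close paralog Aldh1a7 may be partly shared.

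Dhrs3, which reduces retinal back to retinol (chr4:144892827-144928209, plus strand), was the most even member. It ran from 114.4 to 137.8 CPM in freely fed mice, from 97.5 to 132.1 CPM in weight-matched mice and from 125.3 to 139.9 CPM after VSG. Its largest log2 difference was 0.15 (SE 0.11, 95% interval -0.09 to 0.39, adjusted p = 0.329 by edgeR) for VSG against Sham-WM.

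**Figure D3:**
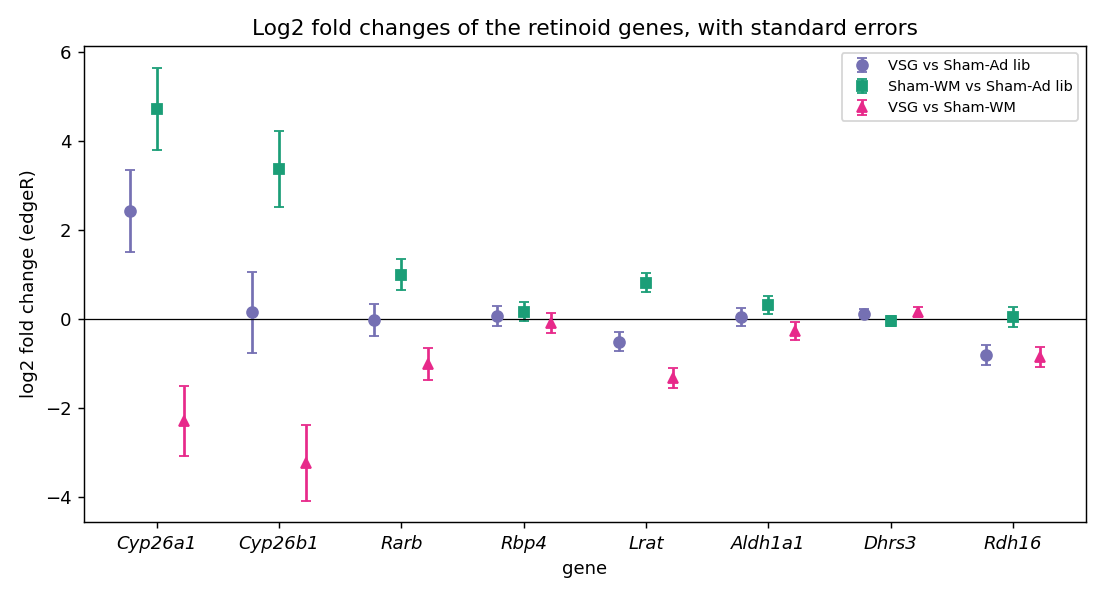
Fitted log2 fold changes (edgeR) of the 8 members in the 3 comparisons, with bars of 1 standard error on either side. Cyp26a1 and Cyp26b1, chosen for their change and not tested, have the longest bars, and of the other 6 genes Rarb, Lrat and Rdh16 lie farthest below 0 for VSG against Sham-WM.

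Of the 6 tested members, edgeR called 0 for VSG against Sham-Ad lib, where 0.751% of all genes were called (0.467% higher, 0.283% lower). At an unadjusted p under 0.05 it would have called 2 of the 6, Lrat and Rdh16, with 24.1% of all genes, and DESeq2 called Rdh16 after adjustment. For Sham-WM against Sham-Ad lib 1 member was called (Lrat, higher), with 6.99% of all genes called (3.53% higher, 3.45% lower), and 2 at an unadjusted p under 0.05 (Rarb and Lrat), with 21.6% of all genes. For VSG against Sham-WM 3 were called (Rarb, Lrat and Rdh16, all lower), in a comparison that called 26.9% of all genes (15% higher, 11.9% lower). The same 3 passed at an unadjusted p under 0.05, as did 40.4% of all genes. Groups did not overlap for 0, 2 and 2 of the 6 in these comparisons, against 9.21%, 17.6% and 26.2% of all genes. An exact two-sided permutation test of single members cannot go below p = 0.0286 with 4 mice against 4. It gave that value for Rarb and Lrat in Sham-WM against Sham-Ad lib and for Lrat and Rdh16 in VSG against Sham-WM. After adjustment over the 18 exact tests the lowest p was 0.129. The edgeR p-values set a group difference against the spread between mice within groups, estimated in 1 fit to these 12 mice. Each exact test used only the mice of its 2 groups. Neither separates treatment from anything tied to the blocks of library numbers.

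Other genes of the pathway were taken from 8 lists of 79 genes without the members, of which 60 were tested. Their share of calls stayed close to that of all genes (26.9%) when the 2 weight-reduced groups were compared: 17 of 60 (28.3%) for VSG against Sham-WM, 6 higher and 11 lower. Against Sham-Ad lib, 4 of 60 (6.67%) were called in Sham-WM, 2 in each direction, beside 6.99% of all genes. In VSG 2 of 60 (3.33%) were called against Sham-Ad lib, both lower, beside 0.751% of all genes. The last count was 0 in 8 of the 12 fits that left out 1 library, where at most 0.0226% of all genes were called. Median log2 differences over the 60 were -0.09, -0.07 and -0.09 for VSG and Sham-WM against Sham-Ad lib and for VSG against Sham-WM, with 0.03, 0.00080 and 0.03 over all genes.

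Genes of retinyl ester formation and hydrolysis held all 4 calls of Sham-WM against Sham-Ad lib, where 6.99% of all genes were called. For VSG against Sham-WM 8 of the 16 tested were called, where 26.9% of all genes were. Most of them act on other lipids too. Pnpla3, a lipase of lipid droplets known to hydrolyse retinyl esters in stellate cells, had 9.94, 4.76, 14.8 and 5.68 CPM in Sham-WM. Sham-Ad lib livers held 0.502, 0.805, 0.271 and 0.0627 CPM and VSG livers 0.478, 0.306, 0.301 and 0.171 CPM. It was higher in all 4 Sham-WM livers, with 93 to 291 counts, than in the other 8, with 1 to 15 counts, of which 10F (1 count) and 18F (3 counts) were within the floor. It had enough reads to be tested only through Sham-WM, so its calls are part of the counts above but its differences are given as a description. Fitted log2 differences were 4.37 for Sham-WM against Sham-Ad lib and -4.78 for VSG against Sham-WM.

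Lipe and Pnpla2, the hormone-sensitive and adipose triglyceride lipases, moved the other way. Pnpla2 had 39.6, 56.9, 40.8 and 40.4 CPM in Sham-WM, next to 91.1, 93.5, 92.7 and 94.6 CPM in Sham-Ad lib and 72.9, 83.1, 84.4 and 100.4 CPM in VSG. Its Sham-WM values lay below all others, with a log2 difference of -1.07 against Sham-Ad lib (SE 0.13, adjusted p = 0.000509 by edgeR) and of 0.94 for VSG against Sham-WM (SE 0.13, adjusted p = 0.000753). For Lipe these differences were -1.16 (SE 0.24, adjusted p = 0.012 by edgeR) and 0.96 (SE 0.24, adjusted p = 0.0118).

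Lipa, the lysosomal acid lipase, rose in Sham-WM by 0.38 on the log2 scale (SE 0.10, adjusted p = 0.0421 by edgeR) and was lower in VSG than in Sham-WM by a log2 difference of -0.68. The carboxylesterases Ces1d, Ces1e and Ces1g were lower in VSG than in Sham-WM, with log2 differences of -1.47, -1.06 and -1.22. Ces1e was lower in VSG than in Sham-Ad lib also (-0.88, SE 0.17, adjusted p = 0.0442 by edgeR). The Ces1 genes are a family of near copies, so their reads may be split between members.

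Among carriers and uptake proteins, Lpl, lipoprotein lipase, was higher in VSG than in Sham-WM by 1.45 (SE 0.38, adjusted p = 0.0159 by edgeR). In 11 of the 12 libraries Stra6, the membrane receptor for RBP4, had 0 counts, and 1F had 1 count.

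Of the retinol and retinal oxidoreductases, 2 of 15 tested (13.3%) were called, Rdh11 and Rdh10, both lower in VSG than in Sham-WM. That share was below the 26.9% of all genes called in this comparison, of which 11.9% were lower and 15% higher. Rdh11, a retinal reductase, had 53.8, 99.0, 41.1 and 38.7 CPM in Sham-WM and 20.7, 26.4, 10.8 and 20.4 CPM in VSG, a log2 difference of -1.56 (SE 0.36, adjusted p = 0.00824 by edgeR). It did not pass against Sham-Ad lib (-1.70, SE 0.36, adjusted p = 0.0502), although all 4 VSG values were lower. Rdh10 differed by -0.29 (adjusted p = 0.0369). Of the enzymes of retinal oxidation 0 of 5 were called in any comparison by edgeR or DESeq2. Against Sham-Ad lib, edgeR called 0.751% of all genes for VSG and 6.99% for Sham-WM, next to the 26.9% above. At an unadjusted p under 0.05 there was 1 enzyme, for Sham-WM against Sham-Ad lib, beside 21.6% of all genes. Aldh1a2 had 1 to 9 counts and Aldh1a3 3 to 39 counts per library.

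No RAR or RXR gene on the list (Rara, Rarg, Rxra, Rxrb and Rxrg) was called in any comparison by edgeR or DESeq2. Of all genes edgeR called 0.751% for VSG and 6.99% for Sham-WM against Sham-Ad lib, and 26.9% for VSG against Sham-WM. Against Sham-Ad lib, 1 of these 5 had an unadjusted p under 0.05 for VSG, beside 24.1% of all genes. For Sham-WM it was 2, beside 21.6%. The log2 differences of these receptor genes lay between -0.39 and 0.51. The coactivator Ncoa3 was lower in VSG than in Sham-WM, by -0.49 on the log2 scale. Nrip1, a corepressor whose gene is known to respond to retinoic acid, was at 12.2, 22.5, 31.5 and 25.6 CPM in Sham-WM and 12.7, 14.7, 11.1 and 11.6 CPM in VSG (log2 difference -0.87, SE 0.23, adjusted p = 0.0169 by edgeR). Animal 15F was highest for Nrip1 too, and 2F of Sham-WM lay within the VSG range. Against Sham-Ad lib Nrip1 was not called in Sham-WM (0.70, adjusted p = 0.0925). Of the carotenoid genes, the cleavage enzyme Bco2 and the uptake receptor Scarb1 were higher in VSG than in Sham-WM, by 0.41 and 0.57. Bco2 overlaps Il18 on the opposite strand, which had 203.9 counts per library on average. As for Rarb, reads of the overlapping gene may enter its counts if counting did not use the strand.

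**Figure D4:**
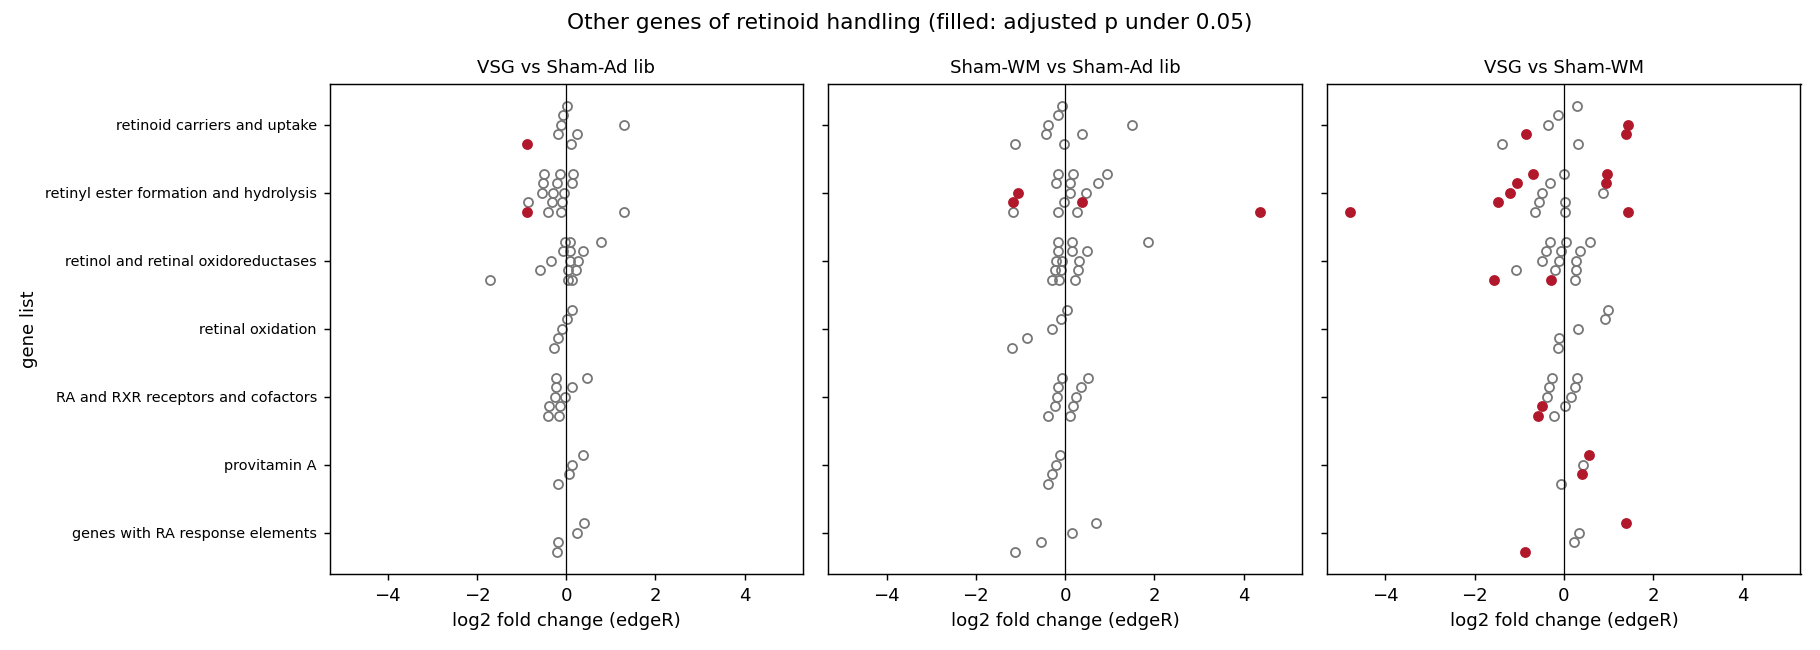
Log2 fold changes (edgeR) of the 60 tested pathway genes outside the 8 members, 1 panel per comparison, in rows by list, where each circle is a gene, filled circles have an adjusted p under 0.05, vertical offsets within a row only separate points and a gene on several lists appears in each. Pnpla3 stands apart among retinyl ester genes with 4.37 for Sham-WM against Sham-Ad lib and -4.78 for VSG against Sham-WM.

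Kupffer cell and acute phase genes moved in the comparison that held most of these calls, where 15% of all genes were higher and 11.9% lower. For VSG against Sham-WM all 6 Kupffer cell genes were higher, with summed levels of 104.2 to 183.3 CPM in Sham-WM and 389 to 1118 CPM in VSG, and 113.5 to 375.7 CPM in Sham-Ad lib. Of 12 acute phase genes 11 were higher in VSG than in Sham-WM, with sums of 15230 to 17770 CPM in Sham-WM and 25300 to 84890 CPM in VSG. Of 6 hepatocyte genes 2 were lower, and of 7 sinusoidal endothelial genes 1 was lower, beside 11.9% of all genes. Their part in the retinoid differences was not tested.

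The genes whose log2 CPM followed Cyp26a1 most closely over the 12 libraries, among 10824 genes averaging log2 CPM of 1 or more, were Inafm2 (Pearson r 0.937, Spearman rho 0.902), Gtf2ird1 (0.931, 0.972), Wdr91 (0.925, 0.902), Acer3 (0.912, 0.874) and Dexi (0.902, 0.853). These genes moved far less than Cyp26a1: the mean of Inafm2 was 12.8 CPM in Sham-WM, 11.4 CPM in VSG and 10.3 CPM in Sham-Ad lib. Running opposite to Cyp26a1 were Osbpl3 (r -0.942, rho -0.972), F11 (-0.919, -0.797), Slc38a3 (-0.905, -0.874), Blmh (-0.899, -0.741) and Zer1 (-0.897, -0.790). Osbpl3, an oxysterol-binding protein family member, was at 21.5, 33.5, 30.5 and 35.0 CPM in freely fed mice, at 14.7, 10.6, 3.67 and 6.19 CPM in weight-matched mice and at 6.69, 22.5, 12.6 and 5.80 CPM after VSG. It was lowest in 15F and highest in 10F, the reverse of Cyp26a1.

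The 5 genes most like Cyp26b1 were Slc6a13 (r 0.965, rho 0.944), Rbm12b1 (0.944, 0.853), Pcnp (0.944, 0.853), Rngtt (0.943, 0.958) and Dvl1 (0.942, 0.804). Between members, Cyp26a1 had an r of 0.844 with Cyp26b1 (rho 0.657), 0.794 with Rarb (rho 0.566), 0.611 with Lrat (rho 0.336) and 0.0795 with Rbp4 (rho 0.0559). For Cyp26b1 the r was 0.826 with Rarb (rho 0.650), 0.787 with Lrat (rho 0.769), 0.720 with Aldh1a1 (rho 0.769) and 0.636 with Rdh16 (rho 0.664). These are descriptions over 12 libraries that share the group differences. The lists of nearest genes depended on single libraries: of the 5 most like Cyp26a1 1 was kept without 2F, of the 5 least like it 1 without 11F, and of the 5 most like Cyp26b1 3 to 5 with any 1 library left out.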

How the data were processed

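Poly(A) RNA of 12 livers (3 groups of 4 mice) was sequenced from directional libraries. The authors aligned reads to mm10 with TopHat2 (version 2.1.1 per the submitters' processing notes), counted them per gene with featureCounts and deposited raw counts, neither normalized nor corrected. No sample column was left unused (0). Symbols, positions and lengths came from GENCODE M21 (45229 of 46078 genes matched).

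Libraries were grouped by the animal number shared by title and column name. Each column name is also the description of another sample, so columns were tied to groups and not to single samples. Counts were analysed in R 4.3.3 with edgeR 4.0.16: filterByExpr (minimum count 10, total 15; 13054 genes), TMM factors (0.879 to 1.04), 1 quasi-likelihood fit of group means to 12 libraries and 3 contrasts, with Benjamini-Hochberg adjustment over all genes and calls at 0.05. CPM and RPKM used TMM-scaled library sizes, and log2 CPM a prior count of 2. Values of 3 counts or fewer were taken as the floor, which covers counting error only, since reads had no molecular identifiers. No 2 replicates agreed within sampling noise (mean chi-square per gene at least 16.8 in every pair). The code was tested on simulated data.

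The members and gene lists were chosen with earlier results of these data known. Named pathway genes were those called in at least 1 contrast, at most 6 per direction and contrast by size of change, with Ncoa3 and Rdh10 named in addition. Some pathway genes that enter the counts are not reported here by name. Alternatives were DESeq2 1.42.0, upper quartile normalization, other filters, fits to 2 groups, 2 factors by RUVs or RUVr (written from their definitions), the second label field and leaving out libraries.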

Additional observations from a re-analysis of the deposited data

Results flagged for a closer look

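In 5 of 66 sets of 4 libraries (a member or named pathway gene in 1 group), 1 library lay apart from the other 3 by Dixon's 95% criterion for 4 values. Chance gives about 1 in 20 such sets. In Sham-Ad lib, animal 4F was low for 3 genes: Rbp4 at 2404 CPM against 3305 to 3391 in the others, Lipe at 16.7 CPM against 25.4 to 27.0, and Ces1d at 328.1 CPM against 663.5 to 751.6. In VSG, 1F was low for Ces1e at 53.3 CPM against 90.9 to 98.0. In Sham-WM, 9F was high for Pnpla2 at 56.9 CPM against 39.6 to 40.8. No value of Cyp26a1 or Cyp26b1 met the criterion, since 15F and 16F were high together.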

How the results depend on the processing

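No paired analysis was possible because the groups share no animal numbers. Counts of pathway genes called depended on the processing, as did the share of all genes called. That share for VSG against Sham-Ad lib went from 0.751% to 9.01% with DESeq2, 2.72% with no filter, 23.1% with RUVr and 0.046% with RUVs. It was 0% with only the 2 groups and 0% to 8.2% with 1 library left out. For Sham-WM against Sham-Ad lib 6.99% became 10.8% with DESeq2, 11.1% with only the 2 groups, 13.2% with RUVs and 16.8% with RUVr. For VSG against Sham-WM 26.9% became 3.97% with RUVs, 42.1% with RUVr and 5.65% without 15F and 16F. The 2 genes of VSG against Sham-Ad lib became 6 with DESeq2, 4 with no filter, 13 with RUVr factors and 0 with at least 10 counts in every library, with only the 2 groups, with RUVs factors or without 15F and 16F, and ran from 0 (without 3F, 6F, 10F, 2F, 9F, 15F, 16F or 1F) to 5 (without 4F), with 1 without 11F, 3 without 18F and 4 without 8F, when 1 library was left out. The 4 of Sham-WM against Sham-Ad lib became 7 with DESeq2, 9 with only the 2 groups, 12 with RUVs, 13 with RUVr and 2 without 15F and 16F (3 to 7 with 1 library left out, 7 without 11F). The 17 of VSG against Sham-WM became 5 with RUVs, 30 with RUVr and 7 without 15F and 16F (10 without 15F to 22 without 11F). Grouping by the second label field gave 0 in each, and reversed many members: Cyp26a1 became -2.40, -3.54 and 1.14 on the log2 scale (VSG and Sham-WM against Sham-Ad lib, VSG against Sham-WM), Cyp26b1 -2.30, -3.05 and 0.76, Rbp4 -0.0857, -0.21 and 0.13, Aldh1a1 -0.23, -0.28 and 0.0534, Rarb -1.04 and 0.47 in the last 2, Lrat -0.55 in the second, and Dhrs3 -0.16 and -0.0934 in the first and last. RUVs moved VSG against Sham-Ad lib to 3.59 (Cyp26a1) and 1.92 (Cyp26b1) and VSG against Sham-WM to -0.65 and -1.10. It reversed Rarb (0.37, VSG against Sham-Ad lib), Rdh16 (-0.0529, Sham-WM against Sham-Ad lib) and Rbp4 (0.0117, VSG against Sham-WM). No filter reversed Aldh1a1 (-0.0105, VSG against Sham-Ad lib). Without 15F and 16F Cyp26a1 was 0.35 for VSG against Sham-WM and Rdh16 -0.0284 for Sham-WM against Sham-Ad lib. With 1 library left out, differences that changed sign ran from -0.29 to 0.82 (Cyp26b1, not tested), -0.42 to 0.16 (Rarb), -0.17 to 0.16 (Rbp4) and -0.19 to 0.15 (Aldh1a1) for VSG against Sham-Ad lib, from -0.0931 to 0.0449 (Dhrs3) and -0.14 to 0.18 (Rdh16) for Sham-WM against Sham-Ad lib, and from -0.31 to 0.0088 (Rbp4) for VSG against Sham-WM, none of the tested ones called by edgeR. The cause of these shifts was not tested. By Spearman rho, 3 and 2 of the 5 genes most and least like Cyp26a1 and 1 of the 5 most like Cyp26b1 were kept. Depth limits Cyp26b1, Cyp26c1, Stra6 and Aldh1a2, which had few counts.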
